A study of Arabidopsis thaliana with 2 samples.

Results

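A group of 6 genes that modify pectin in the plant cell wall was followed in the Arabidopsis thaliana stem, 3 pectin methylesterases (ATPMEPCRD, ATPMEPCRB and PME35) and 3 polygalacturonases (ADPG1, PGX2 and PGX3). They were taken by name from the probe sets that the platform annotation assigns to 1 gene alone, so that the 6 genes are 6 of 22746 probe sets, 1 probe set each. Several were chosen because their values on these arrays were already known to differ, so their ratios are a description and carry no test.

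Stem RNA was hybridised to 2 Affymetrix ATH1 arrays, on which a set of short oligonucleotide probes reads each transcript. One array held RNA of wild-type plants and the other RNA of 35S::AtC3H14 plants, in which the viral 35S promoter, active in most plant tissues, drives AtC3H14, a CCCH zinc finger protein that the series describes as a target of the secondary wall regulator MYB46. Both were Columbia (Col-0), 30 days old and grown on soil at 23 °C in a cycle of 16 h light and 8 h darkness, and both samples ran from the stem base to the third internode. The labels do not say how many plants or transgenic lines went into a sample, and with 1 array a group no difference could be set against variation between plants.

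Pectin is rich in homogalacturonan, a chain of galacturonic acid that is secreted with many of its acid groups masked by methyl esters. Pectin methylesterases remove these esters in the wall, and proteins called pectin methylesterase inhibitors block them. The bared stretches can bind calcium, which stiffens pectin, or be cut by polygalacturonases, which hydrolyse the chain and loosen or separate cells. In stems these enzymes take part in cell elongation, adhesion between cells and the mechanical strength of the axis.

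The values are MAS5 signals on a linear scale, and a ratio is the 35S::AtC3H14 signal over the wild-type signal. Signals under a floor of 104.0, the 40th percentile of all signals that are not controls, were treated as too low to measure. A gene under the floor on 1 array has only a bound, the brighter signal set against the floor, which is printed as "at least", and a gene under it on both has no ratio. AtC3H14 itself went from 244 in wild type to 8655 in the overexpressor, in the direction of the label. The 18 probe sets of spiked hybridization controls all read higher on the 35S::AtC3H14 array, by 0.52 on average in log2. Ratios scaled to these controls are given below as an alternative, and which scaling is right was not tested.

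Of the 6 genes, 5 reached the floor on at least 1 array. ATPMEPCRD and ATPMEPCRB were at least 2-fold higher in the overexpressor and ADPG1 was at least 2-fold lower. PME35 had a ratio close to 1, PGX3 had a bound under 2-fold, and PGX2 lay below the floor on both arrays. In bulk stem RNA, fewer cells of a type and less RNA per cell cannot be told apart. Among all 14469 probe sets above the floor on at least 1 array, bounds included, the share at least 2-fold higher was 5.27% and the share at least 2-fold lower 5.78%. The genes were picked from these same ratios, so nothing is read from their share.

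**Figure D1:**
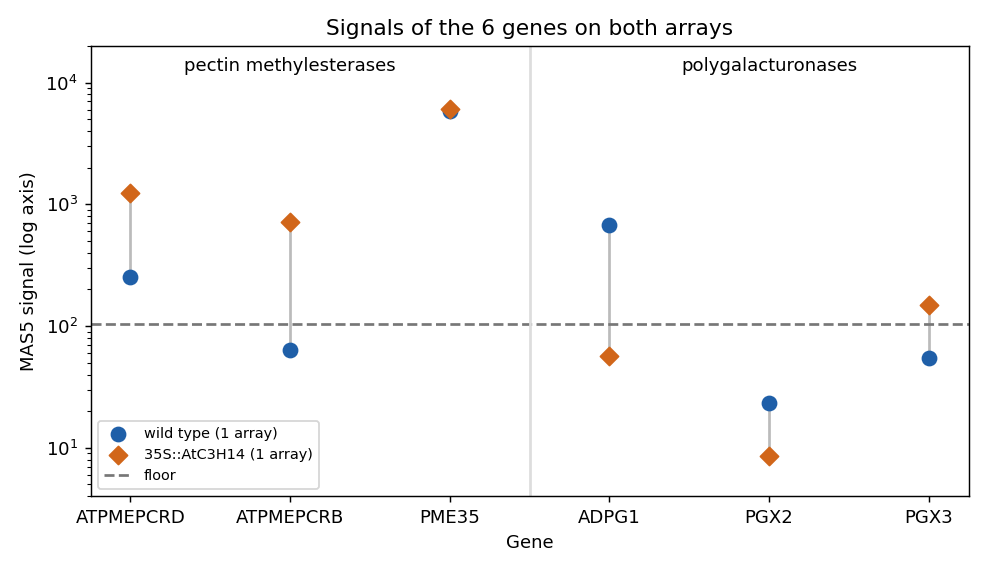
MAS5 signal (log axis) of each of the 6 genes on the wild-type array (circles) and the 35S::AtC3H14 array (diamonds), 1 array a group with no error bars, with the floor of 104.0 as a dashed line. ATPMEPCRD, ATPMEPCRB and PGX3 lie higher in the overexpressor, ADPG1 and PGX2 lie lower, the 2 signals of PME35 overlap, and both signals of PGX2 are under the floor.

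Among the pectin methylesterases, ATPMEPCRD (AT2G43050) went from a signal of 253 in wild type to 1230.2 in the overexpressor. It is the methylesterase of the group that could be measured on both arrays with a large difference. The wild-type signal was 2.43 times the floor and the overexpressor signal 11.8 times. The ratio was 4.87, a log2 ratio of 2.28, and 31 of the 12826 probe sets above the floor on both arrays, ATPMEPCRD included, had a ratio at least as high.

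ATPMEPCRB (AT4G02330, also named PME41), a methylesterase known for its part in chilling tolerance and its response to brassinosteroids, went from 63.8 in wild type to 719 in the overexpressor. The wild-type signal was under the floor and the other well above it. The transcript was therefore at least 6.92-fold higher in the overexpressor, a bound of 2.79 in log2. Of 1045 probe sets with a bound in this direction, 16 had one at least as large, ATPMEPCRB included. That rank orders the overexpressor signal alone and not the size of the change.

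PME35 (AT3G59010, PME61 in the gene table) is known to act on the primary walls of interfascicular fibres, the strengthening tissue between the vascular bundles of the stem. Its signal was 5846 in wild type and 6115 in the overexpressor. The lower of these was 56.2 times the floor, so a low signal did not limit this ratio. The ratio was 1.05, a log2 ratio of 0.06, and 47.9% of the probe sets above the floor on both arrays had a ratio at least as high. The sign of this small difference depended on the scaling, at -0.04 when the arrays were centred on their medians and -0.46 when they were scaled to the hybridization controls.

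The methylesterases of the group had unlike ratios or bounds. Several of the genes were chosen because their values on these arrays were already known to differ. The gaps between them are therefore a description, and nothing is concluded from them about methylesterases in general. The log2 ratio of ATPMEPCRD was 2.22 above that of PME35, a 4.65-fold gap, and a scaling that multiplies a whole array by 1 factor leaves this gap as it is. For ATPMEPCRB the gap to PME35 was at least 6.61-fold. Between ATPMEPCRB and ATPMEPCRD the bound exceeded the ratio by 0.51, with the true ratio of ATPMEPCRB unknown. A rough scale for such gaps is the pooled SD of 0.35 in log2 among different probe sets for 1 gene (58 genes, 117 probe sets). It holds no variation between plants or hybridizations, and each of the 6 genes has a single probe set.

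Among the polygalacturonases, ADPG1 (AT3G57510), which acts in the opening of siliques and anthers, went from 678 in wild type to 56.8 in the overexpressor. It was 6.52 times the floor in wild type and under the floor in the overexpressor. The transcript was at least 6.52-fold lower, a bound of -2.71 in log2. Of 598 probe sets with a bound in this direction, 15 had one at least as large, ADPG1 included. That rank orders the wild-type signal alone and not the size of the change. Because the overexpressor signal was already under the floor, the bound stayed at -2.71 when that array was scaled down to the hybridization controls.

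PGX3 (AT1G48100), a polygalacturonase known for its part in cell expansion and stomatal function, went from 55.1 in wild type to 150.0 in the overexpressor. Only the second signal passed the floor, by 1.44 times. The bound of 1.44-fold higher leaves the size of the difference unknown. Of the 1045 probe sets with a bound in this direction 434 had one at least as large, a rank of the overexpressor signal alone. With the hybridization-control scaling the bound was 0.00591 in log2, so that no difference was shown.

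PGX2 (AT1G78400), known for its part in cell expansion and in stem lignification, read 23.5 in wild type and 8.51 in the overexpressor. Both were under the floor, by 4.43 times in wild type and by 12.2 times in the overexpressor. No ratio is given, and a difference was not detectable at these signals.

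Set beside each other, ADPG1 and the higher methylesterases lay on opposite sides of the distribution of ratios. The log2 ratio of ATPMEPCRD exceeded the bound of ADPG1 by 4.99, which puts at least 31.7-fold between their ratios. For PME35 against ADPG1 the gap was at least 6.82-fold, and for PGX3 against ADPG1 at least 9.41-fold. Both sides of the PGX3 gap are bounds, at 0.53 in log2 for PGX3 and -2.71 for ADPG1. The PGX3 signal passed the floor only in the overexpressor, by 1.44 times, and PGX3 had no value with the floor at the 60th percentile. PGX2 had no ratio, so nothing is read from this gap about the polygalacturonases as a group.

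**Figure D2:**
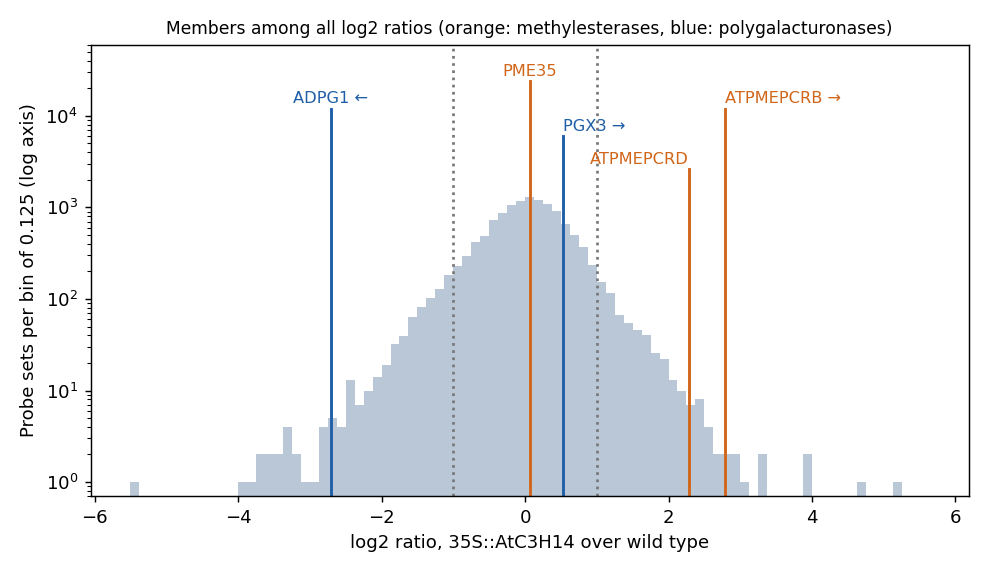
Number of probe sets (log axis) by log2 ratio of 35S::AtC3H14 over wild type for the 12826 probe sets above the floor on both arrays, with vertical lines at the members (orange for methylesterases, blue for polygalacturonases), arrows for bounds and dotted lines at 2-fold. PME35 stands near the centre at 0.06, ATPMEPCRD at 2.28 in the upper tail, the bound of ATPMEPCRB at 2.79 and that of ADPG1 at -2.71, and PGX2 has no ratio and is not drawn.

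ADPG1 is best known from flowers and fruits, so markers of those organs were read on the same arrays. Of 8 flower and pollen markers, 3 had a probe set of their own. AMS, a regulator of the anther tapetum, had signals of 20.9 and 1.50 in wild type and overexpressor, the pollen pectate lyase AT59 had 4.45 and 35.0, and AT5G07230, listed as the tapetum gene A9, had 9.02 and 26.6. All 3 were under the floor on both arrays, with signals that summed to 34.4 in wild type and to 63.1 in the overexpressor. Of 5 silique and dehiscence zone markers only ALC, a regulator of valve separation, could be read, at 67.7 in wild type and 141 in the overexpressor. These 4 genes were all under the floor on the wild-type array, on which ADPG1 was high. The other flower, pollen, silique and dehiscence zone markers were matched to no probe set naming them alone. The tissue source of the ADPG1 signal was not tested. None of the 3 seed markers, 5 abscission and senescence markers or 6 xylem and fibre markers was matched to a probe set naming it alone. With 8730 probe sets unnamed in the annotation used, this does not show that the array lacks them, and these tissues were not analysed here.

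Stem tissue could be checked through green tissue and epidermis only. The photosynthetic genes LHCB4.1, PRK and RCA had signals between 6427 and 19298 and log2 ratios between -0.32 and 0.09. WSD1, a wax ester synthase of the stem epidermis and the 1 epidermal marker of 4 that could be read, went from 11.3 in wild type to 466 in the overexpressor, at least 4.48-fold higher. Its bound was 0.59 in log2, under 2-fold, when the floor was raised to the 60th percentile. Its part in the pectin gene ratios was not tested.

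Other pectin genes were read from a list of 60 loci covering synthesis, methylation, de-esterification, cutting and sensing of pectin. Only 10 of them were matched to a probe set naming them alone, of which 7 reached the floor on at least 1 array. Of the 7, 2 were higher by at least 2-fold, beside 5.27% of all probe sets measured, and 0 were lower by as much, beside 5.78%. With median centring, loess or the hybridization-control scaling 1 of the 7, FER, was at least 2-fold lower. The median log2 ratio was 0.39, beside 0.05 over all probe sets measured, and nothing particular to the list is read from 7 genes. Loci without a name in the gene table are given by their code, and their place in the list was assigned for this work by locus.

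In the synthesis of the homogalacturonan chain, GAUT15, of the galacturonosyltransferase family, read 437 in wild type and 373 in the overexpressor, a log2 ratio of -0.23. AT3G49720, listed under homogalacturonan methylation, had signals of 1878 and 2464, a log2 ratio of 0.39. AT5G15740, listed under pectin precursors and side chains, had signals of 519 and 730.1, a log2 ratio of 0.49. None of the 3 reached 2-fold. Scaled to the hybridization controls, their log2 ratios were -0.75, -0.13 and -0.03.

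Among the methylesterases of the list, AT3G49220 went from 1067 in wild type to 3811 in the overexpressor, 3.57-fold higher. It was measured well above the floor on both arrays, with a log2 ratio of 1.84 that was 1.31 under the hybridization-control scaling. AT1G23200 had signals of 113 and 15.1, just above the floor in wild type and under it in the overexpressor, which gave a bound of 1.08-fold lower and left its size unknown. AT3G60730 was under the floor on both arrays, at 19.0 and 8.56.

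A search of the gene names for the same enzyme classes added 2 genes, both methylesterases. PMEPCRF (AT5G53370) read 8405 in wild type and 9479.9 in the overexpressor, a ratio of 1.13. AT4G02300 (PME39) had signals of 3.08 and 31.9, both under the floor. Among the methylesterases outside the 6 genes, AT3G49220 was thus at least 2-fold higher, PMEPCRF had a ratio near 1 at signals far above the floor, and AT1G23200 was not resolved.

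Inhibitors of the methylesterases are represented by AT5G20740 and AT4G25250. AT5G20740 went from 76.4 in wild type to 694 in the overexpressor, at least 6.67-fold higher, a bound of 2.74 in log2. This gene, listed as an inhibitor, thus went in the same direction as ATPMEPCRD and ATPMEPCRB. AT4G25250 was under the floor on both arrays, at 16.6 and 4.18. The other polygalacturonases of the list and both polygalacturonase inhibitors were matched to no probe set naming them alone. They may be among the unnamed probe sets and were not analysed here.

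FER, the receptor kinase FERONIA that binds pectin and monitors the wall, went from 2893 in wild type to 1449.7 in the overexpressor. Its log2 ratio of -0.997 stopped just short of 2-fold lower. It passed 2-fold with median centring (-1.10), loess (-1.002) and the hybridization-control scaling (-1.52), and not with quantile normalization (-0.97).

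**Figure D3:**
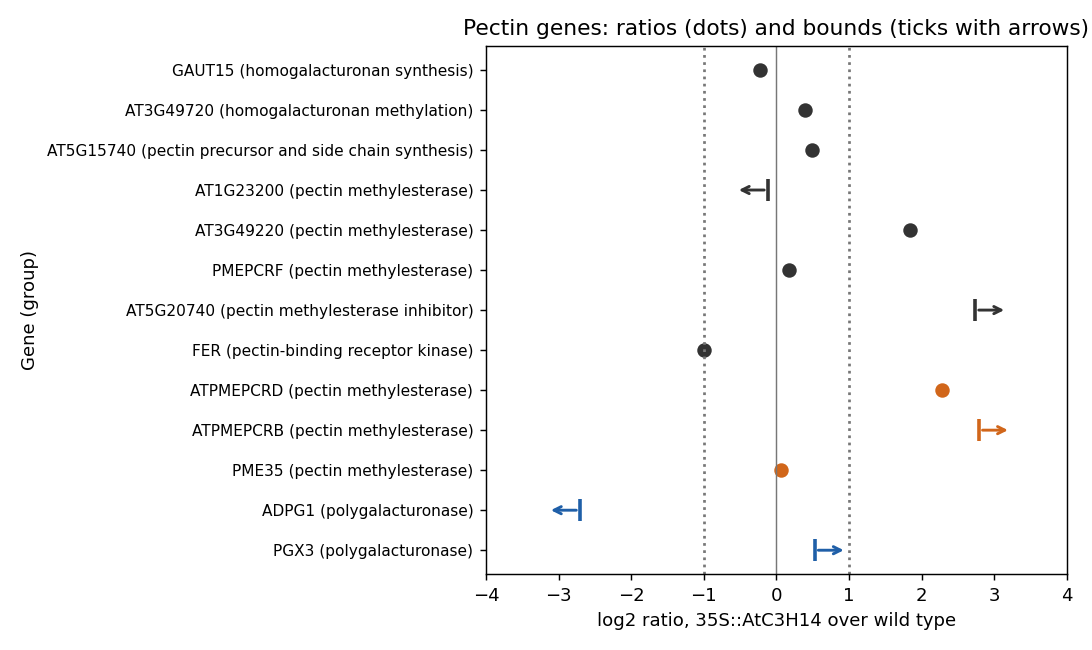
Log2 ratio of 35S::AtC3H14 over wild type for the 8 other pectin genes with a value (black), the methylesterases of the group (orange) and its polygalacturonases (blue). Dots are ratios, ticks with arrows are bounds and dotted lines mark 2-fold. AT3G49220 at 1.84 and AT5G20740 at its bound of 2.74 lie on the same side as ATPMEPCRD and ATPMEPCRB, and FER at -0.997 stands next to the 2-fold line.

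Genes next to the members were read as well, although few of them could be measured. The 5 protein-coding genes on each side of each member make 60 neighbours, of which 25 had a probe set of their own and 17 were measured. Of the 17, 0 were shown to be at least 2-fold higher, against the 5.27% of all probe sets, and 2 were at least 2-fold lower, against 5.78%. Their median log2 ratio was 0.20.

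The row of ATPMEPCRB is the most complete, with 8 of 10 neighbours read. It includes PME39, 3 genes away, which the gene table names as a pectin methylesterase. AT4G02320, directly next to ATPMEPCRB, has only clone names there, so its enzyme class is not given. On one side, AT4G02320 had signals of 14.6 and 20.9 in wild type and overexpressor, AT4G02310 had 11.4 and 33.4, and AT4G02300 (PME39) had 3.08 and 31.9. All 3 read higher in the overexpressor but lay under the floor on both arrays, so they have no ratio. Next to ATPMEPCRB on the other side, AT4G02340 had a log2 ratio of -0.42 and SEC15B, a subunit of the exocyst complex of secretion, of -0.11. AT4G02360 was at least 2.62-fold lower, and AT4G02370, on that same side, had a log2 ratio of -0.96. GH9B13, on the side of PME39, had a log2 ratio of 0.29.

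Around ADPG1, 3 neighbours were measured, with log2 ratios of 0.39 for AT3G57470, -0.08 for AT3G57480 and 0.94 for AT3G57490, against the bound of -2.71 for ADPG1 itself. Around PME35, 4 neighbours were measured and had log2 ratios between 0.03 and 0.25, near its own 0.06. ATPMEPCRD had 1 measured neighbour, AT2G43030, with a log2 ratio of 0.59. PGX3 had 1 as well, AT1G48090, at 0.34. Near PGX2, GSTU20, a glutathione transferase, had a log2 ratio of 0.52, and AT1G78410, next to PGX2 on its other side, had a bound of 1.81-fold higher that leaves its size unknown. AT1G78450, further along on the same side as AT1G78410, was 4.71-fold lower.

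**Figure D4:**
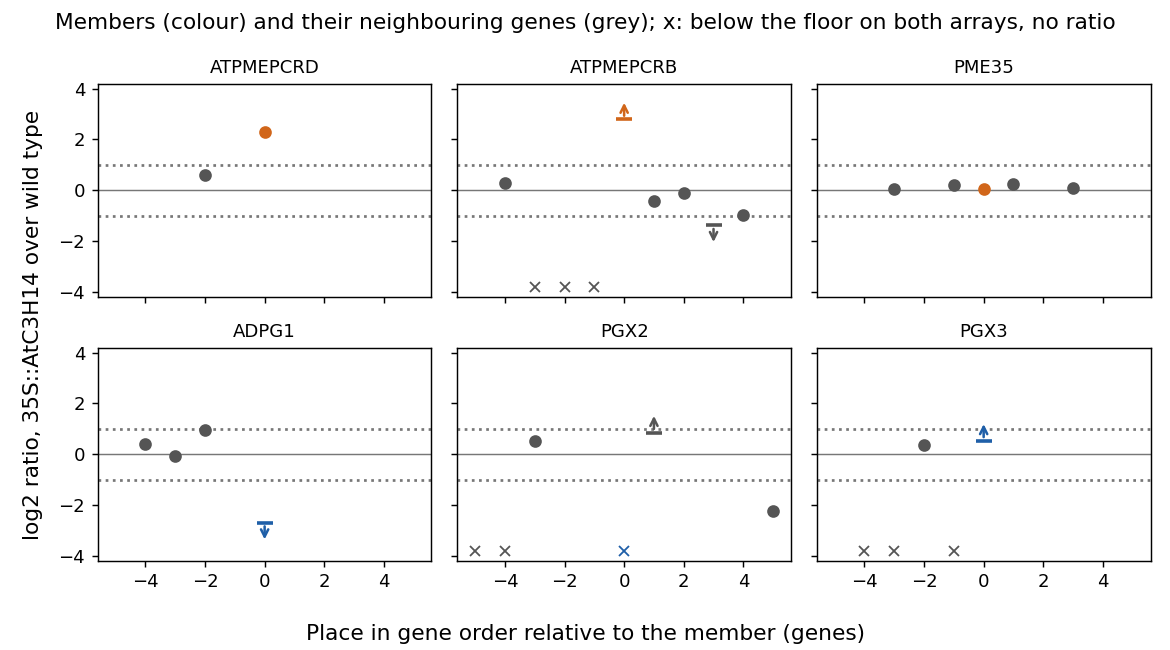
Log2 ratio of 35S::AtC3H14 over wild type for each member (colour, at 0 on the horizontal axis) and for those of the 5 genes on each side that have a probe set (grey), by place in gene order. Dots are ratios, ticks with arrows are bounds, crosses at the bottom mark genes under the floor on both arrays and dotted lines mark 2-fold. No neighbour's ratio or bound reaches 2-fold higher, and 2 are 2-fold lower.

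Genes with a symbol and the most similar ratios were looked up, with likeness taken as the absolute difference in log2 ratio over the 2 arrays, a measure that many unrelated genes can share. For ATPMEPCRD, among 988 candidates, these were WES1, an enzyme that conjugates auxin, with a log2 ratio of 2.33, and the endoglucanase GH9C2 with 2.40. For PME35 they were YLS5 and HAT2, both at 0.06. For the bound of ADPG1 the nearest of 45 were RALFL31, a signalling peptide gene, at -2.57 and PYK10, a beta-glucosidase, at -2.56. For the bound of ATPMEPCRB the nearest of 97 were the subtilase SBT1.3 at 2.65 and GLC at 2.41. A bound compares the brighter signal with the floor, so likeness between bounds is likeness of that signal alone.

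The plot of the 6 genes under all settings shows how far the handling of the values bears on each. ATPMEPCRD stayed at least 2-fold higher under each of the 7 other settings, between 1.76 and 2.28 in log2, and ATPMEPCRB did so between 1.22 and 3.50. ADPG1 stayed at least 2-fold lower under the same 7, between -3.58 and -1.14. Scaling down the overexpressor array alone cannot change its bound. With no floor PGX3 had a log2 ratio of 1.44 and PGX2 of -1.46, both from signals that include values under the floor.

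**Figure D5:**
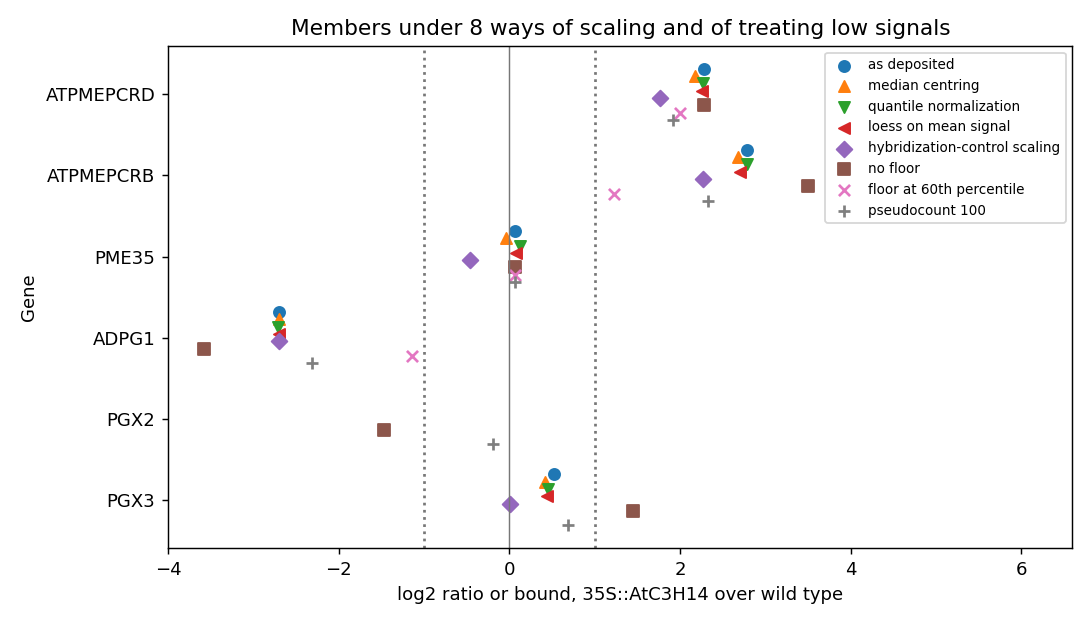
Log2 ratio or bound of each member under 8 settings, each a symbol of its own, with dotted lines at 2-fold. All symbols of ATPMEPCRD and ATPMEPCRB lie right of the upper line and all symbols of ADPG1 left of the lower one. PME35 lies between -0.46 and 0.13, PGX3 passes 2-fold with no floor only, and PGX2 has 2 symbols, from no floor and the pseudocount.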

How the data were processed

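The deposited table holds 1 column of probe-set intensity values for each of 2 ATH1 arrays, on a linear scale. The authors used MAS5, per the submitters' processing notes, and its version and the build are not given in the sources used here. A 2% trimmed mean of 500.04 was found on each array, so that a shift of all transcripts one way cannot be seen. There were no detection calls. The labels give 10 ug of total RNA for each biotinylated cRNA.

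Of 22810 probe sets, 64 controls were set apart. Of the other 22746, 13513 name 1 gene, 503 several and 8730 are unnamed here. Names come from the platform annotation, with 13484 matched to the TAIR10.1 gene table. No coordinates or sequences are printed. The tables given hold no descriptions, so enzyme families were searched in symbols and synonyms.

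Floor, bounds and the 2-fold size were applied as the report states, with Python 3.11.15, numpy 2.4.6, pandas 2.3.3 and statsmodels 0.14.6. The computing of ratios and bounds was checked on fold changes simulated from the wild-type signals. The check did not cover the 2-fold counts or how real arrays behave at low signals. With 1 array a group there is no test, error or left-out replicate, and precision is limited by the number of arrays.

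The members, lists and alternatives were chosen with earlier results of these data known, and the neighbours after seeing values. Named were all members, AtC3H14, every pathway gene or marker with a probe set of its own, the family genes and the 2 nearest in ratio. Alternatives were median centring, quantile normalization, loess (span 0.4), hybridization-control scaling, no floor, a floor at the 60th percentile (308), a pseudocount of 100, a 3-fold size, and no _s_at or _x_at probe sets.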

Additional observations from a re-analysis of the deposited data

How the results depend on the processing

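Of 34 member log2 ratios recomputed under the alternatives, 22 stayed within the SD of 0.35 between probe sets of a gene, 12 moved further and 0 of those past 2-fold changed sign. Median centring, quantile normalization and loess moved none that far. Part of this was fixed in advance. Median centring shifts by 0.11 only, a ratio above the floor is the same with no floor, and scaling down the overexpressor array cannot change the bound of ADPG1. The hybridization-control scaling, which lowers each ratio above the floor by 0.52 by construction, gave 1.76 for ATPMEPCRD, 2.27 for ATPMEPCRB, -0.46 for PME35 and 0.00591 for PGX3. With no floor the values were 3.50 for ATPMEPCRB, -3.58 for ADPG1 and 1.44 for PGX3. A floor at the 60th percentile gave bounds of 1.22 for ATPMEPCRB and -1.14 for ADPG1, and PGX3 had no value. The pseudocount, which shrinks ratios of low signals by construction, gave 1.92 for ATPMEPCRD, 2.32 for ATPMEPCRB and -2.31 for ADPG1.

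Of 52 counts, 46 stayed within 1.5 times. Much of this was built in. The family counts outside the members rest on 1 measured gene as deposited, PMEPCRF, with a ratio near 1. Leaving out _s_at and _x_at probe sets removed none of the family or pathway genes. With no floor, which adds genes of very low signal, 2 members in place of 1 were at least 2-fold lower, 1 family gene outside the members in place of 0 was higher, and 3 pathway genes in place of 0 were lower. With median centring, loess and the hybridization-control scaling 1 pathway gene, FER, was lower. Over all measured probe sets the hybridization-control scaling gave 257 higher and 2285 lower, in place of 763 and 836. It moved their median log2 ratio from 0.05 to -0.44. Signals under the floor on both arrays, the case for 8277 probe sets, PGX2 among them, limit what can be read. No paired analysis was possible because each group has 1 array and no result comes from a test.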
